A study of Mus musculus with 2 samples.

Results

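The 9 genes described here, Camp, Ltf, Ngp, Lcn2, Cd177, Chil3, Fcnb, Olfm4 and Lyz2, are a list of granule genes of mouse neutrophils that was taken by name. All 9 were among the 27998 gene rows of both expression matrices. They were measured by droplet single-cell RNA sequencing in spleen cells sorted for CD11b and Gr1, surface markers that neutrophils and a share of monocytes carry together. The PyMT library came from 3 pooled tumour-bearing PyMT mice, whose strain label is PYMT and whose strain background is not given further. The wild type library came from 5 pooled mice of strain FVB/n. PyMT stands for the middle T antigen of mouse polyoma virus, an oncogene, and neither the promoter that drives it nor the ages of the mice are given in the sources used here. With 1 library per group there is no replicate, so tumour, genotype, strain background and library cannot be told apart, and no p-value was computed between them.

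Neutrophils build their granules in waves as they mature in bone marrow or, under stress, in spleen. Primary granules, with myeloperoxidase and elastase, form in dividing promyelocytes. Secondary or specific granules, with lactoferrin, cathelicidin, neutrophilic granule protein and lipocalin 2, form at the myelocyte and metamyelocyte stages under the transcription factor C/EBP epsilon, and their transcripts are lost again as the cells become segmented and gain the chemokine receptor Cxcr2. Lysozyme is shared by several granule types and by monocytes, and Chil3 and Fcnb start earlier than the classical secondary granule genes.

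There were 9155 cells with 73435307 unique molecular identifiers (UMIs, 1 per captured RNA molecule) from PyMT spleens and 5491 cells with 42542700 UMIs from wild type spleens. Leaving out cells with fewer than 200 genes or more than 10% mitochondrial UMIs removed 5 PyMT cells and no wild type cell, and 72 cell barcodes were present in both libraries. Neutrophils were cells with at least 10% of their UMIs from S100a8 and S100a9 and fewer than 2 from the B cell receptor genes Cd79a and Cd79b. They numbered 5488 cells with a median of 8285 UMIs in PyMT and 3980 cells with a median of 5630 UMIs in wild type. Cycling neutrophils had at least 3 UMIs of Mki67, Top2a, Birc5 and Cdk1 together (252 PyMT and 400 wild type cells). Non-cycling ones had none, and were split by Cxcr2 into cells with 0 UMIs (580 in PyMT and 1636 in wild type) and with 2 or more (3449 in PyMT and 727 in wild type). Monocytes had under 5% S100a8 and S100a9 and at least 2 UMIs of Csf1r and Ccr2 (1597 PyMT and 601 wild type cells). Levels are given as CPM, counts per 1000000 UMIs of the class in its library. Of the neutrophil markers that the class rule did not use, Ly6g stood at 833 CPM in PyMT and 1034 CPM in wild type neutrophils. In monocytes Ly6g was at 37.0 CPM in PyMT and 34.3 CPM in wild type. Retnlg and Mmp9 were also higher in neutrophils than in monocytes of each library. Csf3r separated the classes less, at 260 CPM in PyMT and 97.0 CPM in wild type neutrophils, against 130 CPM in PyMT and 88.1 CPM in wild type monocytes. In cycling neutrophils Csf3r was below its monocyte level, at 106 CPM in PyMT and 75.1 CPM in wild type. B cell-class cells (1034 PyMT and 279 wild type cells, median depths 3402 UMIs in PyMT and 3639 UMIs in wild type) had under 5% S100a8 and S100a9, at least 2 UMIs of Cd79a and Cd79b and none of Csf1r and Ccr2. They should lack granule transcripts and were used to read the level of free RNA in the droplets. No doublets were removed.

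Camp, Ngp and Ltf lie close together on mouse chromosome 9 (GRCm38), with Camp at chr9:109847379-109849617 on the minus strand, Ngp at chr9:110419747-110423012 and Ltf at chr9:111019271-111042767 on the plus strand, within 1195 kb. Camp and Ngp have 4 exons each in the annotation. Their promoters (RefSeq, GRCm38.p6, from 250 bases before to 50 after the start) are shown because Camp and Ngp are a pair whose balance differed between the libraries in every class, and Ltf is the gene whose level followed both most closely across cells. Capitals mark matches on either strand to TTGCNNAA, a short form of the C/EBP recognition motif.
Camp, chr9:109849407-109849706, minus strand: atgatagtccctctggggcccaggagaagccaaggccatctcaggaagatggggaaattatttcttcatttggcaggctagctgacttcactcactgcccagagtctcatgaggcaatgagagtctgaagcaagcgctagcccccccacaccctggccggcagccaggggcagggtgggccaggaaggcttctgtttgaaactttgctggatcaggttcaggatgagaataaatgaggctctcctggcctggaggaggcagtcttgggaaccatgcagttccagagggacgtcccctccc
Ngp, chr9:110419558-110419857, plus strand: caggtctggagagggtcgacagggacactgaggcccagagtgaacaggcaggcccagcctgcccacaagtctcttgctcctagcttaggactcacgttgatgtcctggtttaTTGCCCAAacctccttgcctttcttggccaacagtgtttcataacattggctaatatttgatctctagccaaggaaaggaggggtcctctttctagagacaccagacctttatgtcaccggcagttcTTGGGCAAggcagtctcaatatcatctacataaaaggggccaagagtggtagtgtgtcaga
Ltf, chr9:111019042-111019341, plus strand: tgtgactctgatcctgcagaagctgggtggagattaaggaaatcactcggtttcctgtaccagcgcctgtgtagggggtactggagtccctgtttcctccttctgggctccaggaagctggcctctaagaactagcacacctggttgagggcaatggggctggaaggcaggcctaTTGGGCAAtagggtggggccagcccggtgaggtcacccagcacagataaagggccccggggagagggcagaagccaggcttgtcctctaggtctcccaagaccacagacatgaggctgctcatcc
The Ngp window held 2 matches, 138 and 11 bases before the start, the Ltf window held 1 at 75 bases, and these letters were not in the Camp window. Of the 9 promoters, 4 held the motif (Ltf, Ngp, Lcn2 and Fcnb), against 10.8% of 32851 RefSeq promoters of the same length. GAGGAA, a short form of the PU.1 motif whose matches overlapped none of the others, was in 4 of 9 (Ltf, Lcn2, Cd177 and Olfm4), against 28.3% of those promoters. A match describes the letters and is not a binding site.

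Camp, which encodes the antimicrobial peptide cathelicidin, was the secondary granule transcript with the plainest difference between the libraries. It stood at 31813 CPM in PyMT neutrophils (95% interval 31763 to 31863) and at 65954 CPM in wild type neutrophils (65862 to 66045). Here and below, intervals are exact and cover counting error only, not variation between mice or libraries. On the log2 scale the PyMT level was lower by 1.05, written as a PyMT over wild type value of -1.05. Camp was lower in PyMT in every neutrophil class tested: it stood at 41942 CPM in PyMT and 63970 CPM in wild type cycling cells, at 41577 CPM in PyMT and 71256 CPM in wild type Cxcr2 0 cells, and at 25598 CPM in PyMT and 60264 CPM in wild type cells with 2 or more Cxcr2 UMIs. Those log2 differences were -0.61 in cycling, -0.78 in Cxcr2 0 and -1.24 in Cxcr2-rich cells. The sign held under every alternative, but by the trimmed mean of M-values, a scaling on the bulk of genes, the values were -0.28 in cycling, -0.52 in Cxcr2 0 and -0.85 in Cxcr2-rich cells, and the first 2 were then short of 1.5-fold.

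Ngp, neutrophilic granule protein of the cystatin and cathelicidin superfamily, gave a different picture. It stood at 40565 CPM in PyMT and 47477 CPM in wild type neutrophils, a log2 difference of -0.23. In cycling cells it was at 50909 CPM in PyMT and 45161 CPM in wild type (0.17), and in Cxcr2 0 cells at 50317 CPM in PyMT and 50846 CPM in wild type (-0.02). In the class with 2 or more Cxcr2 UMIs it was at 34429 CPM in PyMT and 44989.9 CPM in wild type (-0.39). These differences depend on the scaling: by the trimmed mean Ngp was at 0.50 in cycling, 0.24 in Cxcr2 0 and 0.00 in Cxcr2-rich cells. The order of Ngp and Camp differed between the libraries: among all genes in neutrophils, Ngp ranked 3 and Camp 4 in PyMT, and Ngp ranked 4 and Camp 3 in wild type, by 3′ UMIs, which count molecules and do not scale with transcript length.

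The count of Camp UMIs per Ngp UMI needs no class total, so no scaling choice enters it. It was 0.784 in PyMT neutrophils (0.783 to 0.786) and 1.389 in wild type neutrophils (1.386 to 1.392), a log2 difference of -0.82. Summed over the cells of a class, the ratio moved less between classes than between libraries. In PyMT it was 0.824 in cycling cells, 0.826 at Cxcr2 0 and 0.743 at 2 or more Cxcr2 UMIs. In wild type it was 1.416, 1.401 and 1.339 in the same order. These sums are led by cells rich in both transcripts. The 1575 non-cycling PyMT cells with at least 1% of their UMIs from Wfdc17 had a ratio of 0.528 (0.520 to 0.535), against 0.821 in the 1764 PyMT cells under 0.1%. The traces of both RNAs in other cells kept the balance of their own library: monocytes had 0.800 in PyMT and 1.373 in wild type, and B cell-class cells had 0.797 in PyMT and 1.330 in wild type. Across all 9 classes and class unions compared, the log2 difference of this ratio lay between -0.85 and -0.74.

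**Figure D1:**
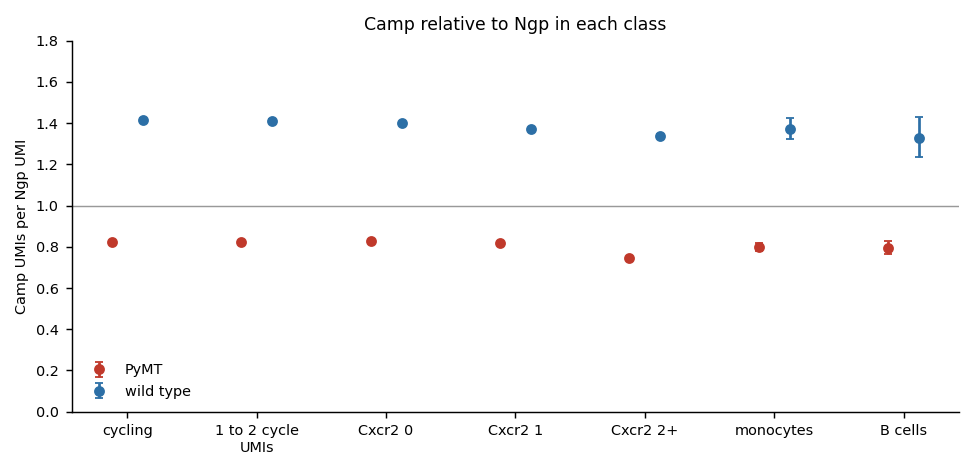
Camp UMIs per Ngp UMI (vertical axis, a ratio) in 7 cell classes (horizontal axis), with PyMT in red left of wild type in blue and 95% counting intervals. PyMT points lie between 0.743 and 0.826 and wild type points between 1.330 and 1.416, on either side of the line at 1.

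Single cells showed the same shift. Among neutrophils with at least 50 UMIs of Camp and Ngp together, Camp exceeded Ngp in 673 of 3994 PyMT cells (16.9%) and in 3552 of 3955 wild type cells (89.8%). The median log2 of Camp over Ngp, with 1 UMI added to each, was -0.44 in PyMT and 0.47 in wild type. By class the median was -0.29 in cycling and -0.57 in Cxcr2-rich PyMT cells, and 0.50 in cycling and 0.42 in Cxcr2-rich wild type cells. Between their 5th and 95th percentiles, PyMT cells lay at -2.00 to 0.37 and wild type cells at -0.19 to 1.15, so the distributions overlapped. In PyMT cells the spread of this log2 ratio was also wider, with an SD of 0.73 against 0.43 in wild type.

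Ltf and Cd177 kept within 0.10 of Ngp on the log2 scale over all neutrophils, and relative to Ngp Lcn2 was at 0.20 and Olfm4 at -1.02. Ltf encodes lactoferrin, the iron-binding protein of these granules, and stood at 8827 CPM in PyMT and 11008 CPM in wild type neutrophils (log2 -0.32). Per Ngp UMI it was 0.218 in PyMT and 0.232 in wild type. By class, Ltf was at 9043 CPM in PyMT and 8489 CPM in wild type cycling cells, and at 11042 CPM in PyMT and 12295 CPM in wild type Cxcr2 0 cells. In cells with 2 or more Cxcr2 UMIs it was at 7809.7 CPM in PyMT and 11295 CPM in wild type. By CPM the gap was widest in the Cxcr2-rich class, but by the trimmed mean it was 0.42 in cycling and -0.15 in Cxcr2-rich cells, so the order of the classes depends on the scaling.

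Lcn2 (chr2:32384633-32388252, minus strand) encodes lipocalin 2, which binds bacterial siderophores. Its levels were 16263 CPM in PyMT and 16532 CPM in wild type neutrophils, a log2 difference of -0.02. Relative to Ngp it was the member that leaned furthest towards PyMT over all neutrophils, with 0.401 Lcn2 UMIs per Ngp UMI in PyMT and 0.348 in wild type (log2 0.20). This did not hold in every class. At Cxcr2 0 Chil3 was at 0.16 per Ngp UMI beside 0.06 for Lcn2. Between the Cxcr2 limits Fcnb was at 0.37 beside 0.10 for Lcn2. In cycling cells Lcn2 stood at 17336 CPM in PyMT and 13433 CPM in wild type (0.37), short of the 1.5-fold limit. By the trimmed mean it was 0.70, which passes it.

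Cd177 (chr7:24743983-24760311, minus strand) encodes a GPI-anchored surface protein of neutrophils that is stored in these granules. It was at 887 CPM in PyMT and 969 CPM in wild type neutrophils (log2 -0.13), with 0.0219 UMIs per Ngp UMI in PyMT and 0.0204 in wild type. With every cell thinned to 1000 UMIs, 47.7% of PyMT and 61.1% of wild type neutrophils still had a Cd177 UMI, against 3.38% of PyMT and 0.717% of wild type B cell-class cells. Unthinned, the neutrophil shares were 83.8% in PyMT and 98.1% in wild type.

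Olfm4 (chr14:79984081-80023139, plus strand) encodes olfactomedin 4, a matrix glycoprotein found in the specific granules of a subset of neutrophils. It was nearly silent here, with 191 UMIs in PyMT neutrophils (3.95 CPM, 3.41 to 4.55) and 285 in wild type neutrophils (9.38 CPM, 8.32 to 10.5). No cell held more than 3 of its UMIs in PyMT or 4 in wild type. An Olfm4 UMI was seen in 3.06% of PyMT and 6.41% of wild type neutrophils, and in 0.437% of PyMT and 0.879% of wild type neutrophils once cells were thinned to 1000 UMIs. B cell-class cells gave 4 UMIs in PyMT and 0 in wild type, where a count of 0 allows up to 3 UMIs in the sum. The log2 difference in neutrophils was -1.25 (-1.52 to -0.98), or -1.02 (-1.28 to -0.76) per Ngp UMI, and no Olfm4-rich group of cells appeared in either library at this depth.

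Chil3, Fcnb and Lyz2 are the broader members. Chil3 (chr3:106147554-106167564, minus strand) encodes a chitinase-like lectin also known as Ym1, and was at 3503 CPM in PyMT and 4514 CPM in wild type neutrophils (log2 -0.37). Its level spread more over stages than between libraries: cycling cells had 7521 CPM in PyMT and 7073 CPM in wild type, Cxcr2 0 cells had 4489 CPM in PyMT and 4067 CPM in wild type, and cells with 2 or more Cxcr2 UMIs had 2384 CPM in PyMT and 3015 CPM in wild type. Fcnb (chr2:28076378-28084885, minus strand), which encodes the pattern-recognition lectin ficolin B, had the steepest course. Its levels were 333 CPM in PyMT and 392.2 CPM in wild type cycling cells, 98.0 CPM in PyMT and 89.7 CPM in wild type cells at Cxcr2 0, and 47.4 CPM in PyMT and 63.7 CPM in wild type cells at 2 or more Cxcr2 UMIs.

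Over all neutrophils Fcnb stood at 92.8 CPM in PyMT and 161 CPM in wild type, a log2 difference of -0.79. Cycling cells, where Fcnb is high, made up 252 of 5488 PyMT and 400 of 3980 wild type neutrophils. By CPM the log2 difference of Fcnb in cycling cells was -0.23. Per Ngp UMI it was -0.56 over all neutrophils and -0.41 in cycling cells. In neutrophils between the cycling and non-cycling limits it was -0.78 per Ngp UMI. Within the non-cycling classes it was 0.14 at Cxcr2 0, 0.37 between the Cxcr2 limits and -0.04 at 2 or more Cxcr2 UMIs. The part of the smaller share of cycling cells in the lower Fcnb level was not tested. Lyz2 (chr10:117277331-117282321, minus strand), the lysozyme of myeloid cells, was at 15505 CPM in PyMT and 20999 CPM in wild type neutrophils (-0.44). Against Ngp it was also lower in PyMT, by -0.21 over all neutrophils and by -0.44 in cycling cells.

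Lyz2 and Chil3 have close copies in the genome. Of the 50-base words of Lyz2 transcripts, 15.4% are shared with Lyz1, and of those of Chil3, 16.9% are shared with Chil4, so part of these counts could be split between copies. The copies had few UMIs in neutrophils: Lyz1 stood at 88.7 CPM in PyMT and 123 CPM in wild type, and Chil4 at 0.828 CPM in PyMT and 0.658 CPM in wild type.

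**Figure D2:**
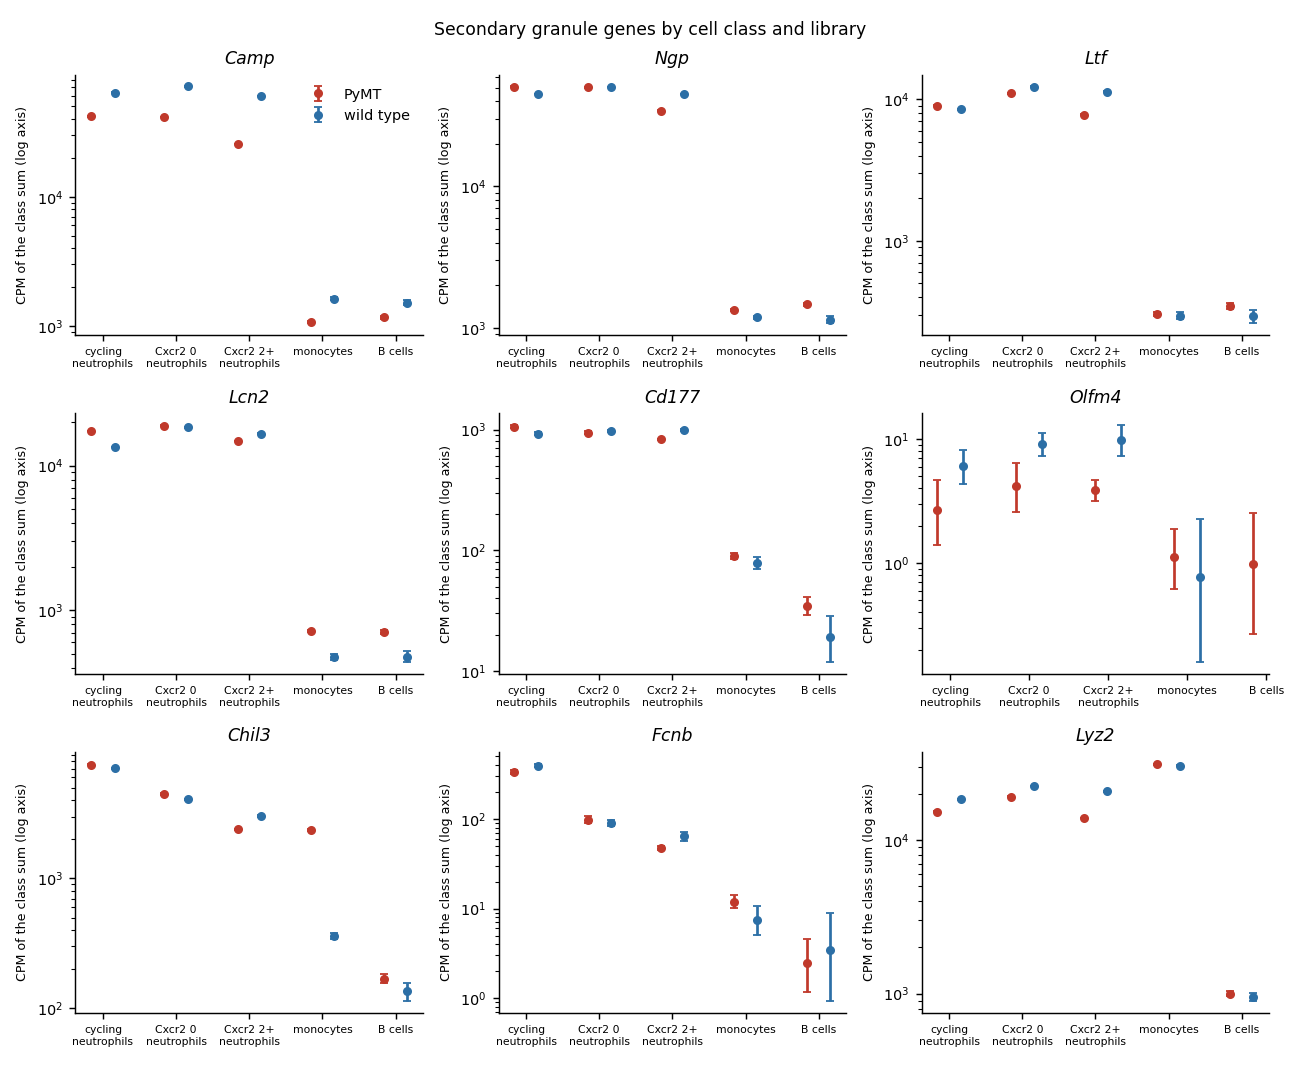
Level of each of the 9 genes (CPM of the class sum, log axis) in cycling, Cxcr2 0 and Cxcr2 2+ neutrophils, monocytes and B cell-class cells, PyMT in red left of wild type in blue, with exact 95% counting intervals. Camp is lower in PyMT in all 3 neutrophil classes drawn, Chil3 is higher in PyMT monocytes (2356 CPM, against 363 CPM in wild type), and Olfm4 in wild type B cells is 0 and not drawn.

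Counted together, 0 of the 9 genes were at least 1.5-fold higher and 3 were at least 1.5-fold lower in PyMT neutrophils (Camp, Fcnb and Olfm4). Of all 9927 genes with at least 50 UMIs in the 2 sums, 7.11% were that much higher and 42.6% that much lower. The 3 of 9 are therefore no more than the share among all genes. The median of all genes was -0.47, and relative to that median Camp stood at -0.58, Olfm4 at -0.78, Fcnb at -0.32, Lyz2 at 0.03, Chil3 at 0.10, Ltf at 0.15, Ngp at 0.24, Cd177 at 0.34 and Lcn2 at 0.45. The direction for Ltf, Ngp, Lcn2, Cd177, Chil3 and Lyz2 was lower in PyMT by CPM and higher by a trimmed mean of M-values or by the median of ratios. The count of genes at least 1.5-fold lower was 1 by the median of ratios and 6 when each cell weighed the same.

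The same count was made within stages. In cycling neutrophils 0 genes were higher and 2 lower (Camp and Olfm4), where 3.8% of 7373 genes were higher and 29.1% lower in PyMT. At Cxcr2 0 it was again 0 higher and the same 2 lower, with backgrounds of 4.81% and 24.9%, and at 2 or more Cxcr2 UMIs 0 higher and those 2 lower, with backgrounds of 9.62% and 30.1%. The median of all genes was -0.32, -0.24 and -0.29 in these 3 classes. These counts moved by more than 1.5 times with scaling, thinning and the UMI minimum, and Camp itself was at least 1.5-fold lower in all neutrophils in 13 of 14 alternative settings, with log2 differences between -1.42 and -0.53. The settings with a minimum of 10 or 200 UMIs are among the 14 and cannot move a Camp value.

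**Figure D3:**
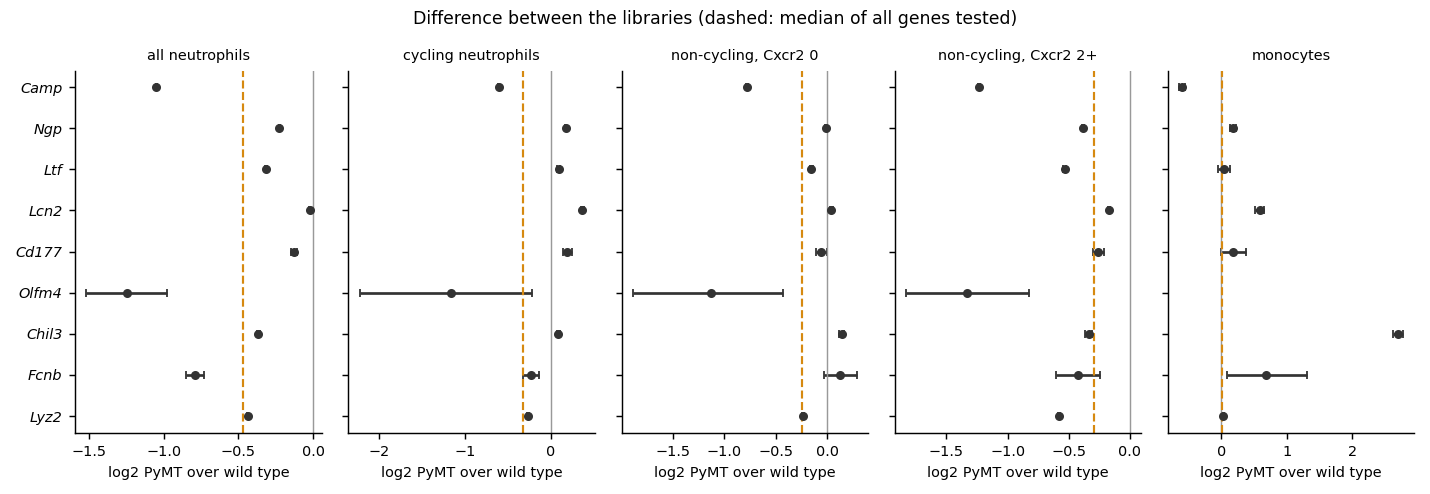
Log2 of PyMT over wild type CPM for each gene (rows) in 5 classes (panels), with 95% counting intervals; the grey line is 0 and the dashed line the median of all genes tested. Camp and Olfm4 lie left of the dashed line in all 4 neutrophil panels, Lcn2 lies right of it in each, and Chil3 stands at 2.70 in monocytes.

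Markers of other cells also differed in the neutrophil class. The 4 dendritic cell markers summed to 222 CPM in PyMT and 1055 CPM in wild type neutrophils, the 6 monocyte markers to 1578 CPM in PyMT and 1560 CPM in wild type, and the 4 B cell markers to 28.6 CPM in PyMT and 18.4 CPM in wild type, and none of these 14 markers was at 0 in either library. The dendritic cell sums were mostly Cd74 and H2-Ab1, and B cell-class cells held more of this list, 23680 CPM in PyMT and 17942 CPM in wild type. Flt3 of that list went the other way, at 0.766 CPM in PyMT and 0.461 CPM in wild type neutrophils. The part of these 14 markers in the differences above was not tested. The PyMT neutrophils were also split by Wfdc17, a gene of the whey acidic protein family chosen after its values were seen. Under 0.1% of UMIs from Wfdc17, Camp stood at 43057 CPM in 1764 PyMT and 67404 CPM in 3322 wild type non-cycling cells, and Ngp at 52469 CPM in PyMT and 48879.8 CPM in wild type. From 1% upwards were 1575 PyMT cells and 1 wild type cell, and those PyMT cells held 4059 CPM of Camp, 7691 CPM of Ngp and 6298 CPM of Lcn2. Their median depth was 3639 UMIs, and the part of the UMI floor of each matrix in these cell counts was not tested. With only the cells under 0.1%, the log2 difference over all neutrophils was -0.61 for Camp and -1.23 for Olfm4. In those cells Fcnb was at -0.17 and no longer past the limit, Lyz2 was at -0.14, and Ltf (0.08), Ngp (0.15), Lcn2 (0.25), Cd177 (0.08) and Chil3 (0.16) had the opposite sign. In Cxcr2-rich cells under 0.1%, Camp was at -0.57, just inside the limit.

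As a rough stand-in for maturation, cells with 2 or more were set against cells with 0 Cxcr2 UMIs, which come from the same library and are not replicates. The limit is a fixed UMI count and depends on depth. The 3322 non-cycling wild type cells under 0.1% Wfdc17 held only 2816 Cxcr2 UMIs, so counting error can move cells between these classes. How well the split parts stages in wild type was not tested. In PyMT 0 of 9 genes were higher and 3 were lower in the Cxcr2-rich cells, where 12.4% of 7791 genes were higher and 6.4% lower. The 3 were Camp (-0.70), Chil3 (-0.91) and Fcnb (-1.05), and Ngp (-0.55) and Ltf (-0.50) lay just inside the 1.5-fold limit. In wild type none of the 9 passed it in either direction, with backgrounds of 3.55% higher and 2.07% lower, and the furthest were Fcnb at -0.50 and Chil3 at -0.43. Camp there stood at 60264 CPM in the Cxcr2-rich and 71256 CPM in the Cxcr2 0 cells (-0.24). Whether these changes differ between the libraries cannot be tested with 1 library each. Without cells from 0.1% Wfdc17 upwards the PyMT count was 0.

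Cycling cells were set against non-cycling cells in the same way. In both libraries 2 genes were at least 1.5-fold higher in cycling cells, Fcnb and Chil3, and 1 was lower, Olfm4. In PyMT 36.7% of 8562 genes were higher and 13.7% lower, and in wild type 39.3% of 8658 were higher and 6.44% lower. Fcnb was higher in cycling cells by 2.44 in PyMT and by 2.34 in wild type, and Chil3 by 1.36 in PyMT and by 0.95 in wild type. Camp was at 41942 CPM in cycling and 30058 CPM in non-cycling PyMT cells, but at 63970 CPM in cycling and 66924 CPM in non-cycling wild type cells. By the trimmed mean these Camp values were 0.05 in PyMT and -0.54 in wild type. The Olfm4 value rests on 12 UMIs in cycling PyMT cells and 42 in cycling wild type cells.

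The secondary granule genes differed from cell to cell far more in PyMT than in wild type. Camp, Ltf, Ngp and Lcn2 together made up a median of 8.69% of a PyMT neutrophil's UMIs and 15.1% of a wild type neutrophil's. They made up under 1% in 1064 of 5488 PyMT neutrophils (19.4%, exact interval 18.3% to 20.5%) and in 8 of 3980 wild type neutrophils (0.201%, 0.0868% to 0.396%). The 1% limit was chosen after the values were seen. All 1034 PyMT and 278 of 279 wild type B cell-class cells were also under it, where the median share was 0.370% in PyMT and 0.330% in wild type. By the class rule these PyMT neutrophils still had at least 10% of their UMIs from S100a8 and S100a9. The matrices list only cells with at least 2502 UMIs in PyMT and 2752 in wild type. The PyMT neutrophils under 1% had a median of 3271.5 UMIs, not far above that floor. Whether such cells were cut from wild type by the floor was not tested.

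PyMT neutrophils with little of these 4 transcripts were rich in receptor transcripts of mature neutrophils. From the lowest bin to the highest (under 1%, 1 to 3%, 3 to 6%, 6 to 12% and 12% or more), Cxcr2 stood at 1234, 800, 490, 285 and 154 CPM in PyMT. Csf3r, the receptor for granulocyte colony-stimulating factor, stood at 1075, 589, 293, 172 and 104 CPM over the same PyMT bins. Median depth moved with the bins, at 3271.5 UMIs per cell in the lowest and 11666.5 in the highest, and its part was not tested. In wild type the Cxcr2 levels were 225, 427, 239, 130 and 96.5 CPM, with only 8 and 39 cells in the lowest 2 bins.

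Gene by gene, the level in a cell is given as UMIs per 10000 of that cell (CP10K). The 5th, 50th and 95th percentiles of Camp were 9.07, 248 and 572 CP10K in PyMT neutrophils, against 256, 695 and 970 CP10K in wild type neutrophils. Those of Ngp were 13.8, 361 and 664 CP10K in PyMT, against 195, 495 and 696 CP10K in wild type. The upper ends of Ngp were thus close while the lower ends were far apart, and for Camp both ends differed. The coefficient of variation was 83.2% for Camp, 86.2% for Ltf, 72.5% for Ngp and 57.0% for Lcn2 in PyMT, against 33.0% for Camp, 40.7% for Ltf, 32.6% for Ngp and 34.8% for Lcn2 in wild type. Among cycling cells, which were deep in both libraries, the coefficient for Camp was 24.3% in PyMT and 23.4% in wild type.

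**Figure D4:**
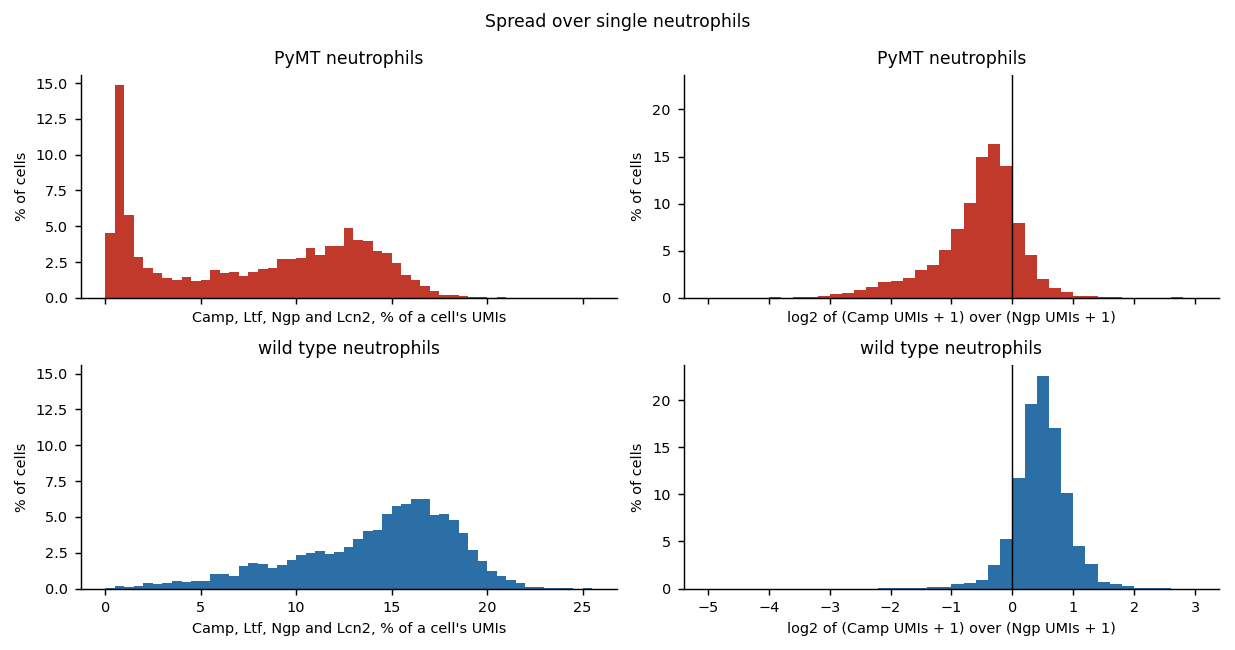
Left, percent of neutrophils (vertical axis) by the share of a cell's UMIs from Camp, Ltf, Ngp and Lcn2; right, by the log2 of Camp over Ngp UMIs; PyMT above wild type. In PyMT a peak below 1% holds 19.4% of the listed cells, against 0.201% in wild type. Cells below the UMI floor of each matrix are not listed. The Camp over Ngp distribution has its median at -0.44 in PyMT and 0.47 in wild type.

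Across non-cycling neutrophils the genes varied together, described here by Pearson's r of log2 (CP10K + 1) over 4878 PyMT and 3351 wild type cells. Cells share their library and depth, so r describes each library and carries no p-value. Camp and Ngp had r of 0.92 in PyMT and 0.80 in wild type, Camp and Ltf 0.91 in PyMT and 0.73 in wild type, and Ltf and Ngp 0.90 in PyMT and 0.72 in wild type. The 6 pairs among Camp, Ltf, Ngp and Lcn2 averaged 0.85 in PyMT and 0.67 in wild type, and all 36 pairs 0.52 in PyMT and 0.28 in wild type. With cells thinned to 1000 UMIs the averages over 36 pairs were 0.35 in PyMT and 0.20 in wild type.

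Cd177 and Lyz2 were tied to the others in PyMT and loosely in wild type: Cd177 with Ngp had 0.75 in PyMT and 0.20 in wild type, and Lyz2 with Camp 0.80 in PyMT and 0.30 in wild type. Fcnb reached at most 0.42 in PyMT and 0.32 in wild type, both with Chil3. Olfm4, with UMIs in few cells, had r between -0.02 and 0.05 with every other member. Among cycling cells the averages over 36 pairs were closer, 0.30 in PyMT and 0.23 in wild type, and among monocytes they were 0.02 in PyMT and 0.04 in wild type.

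**Figure D5:**
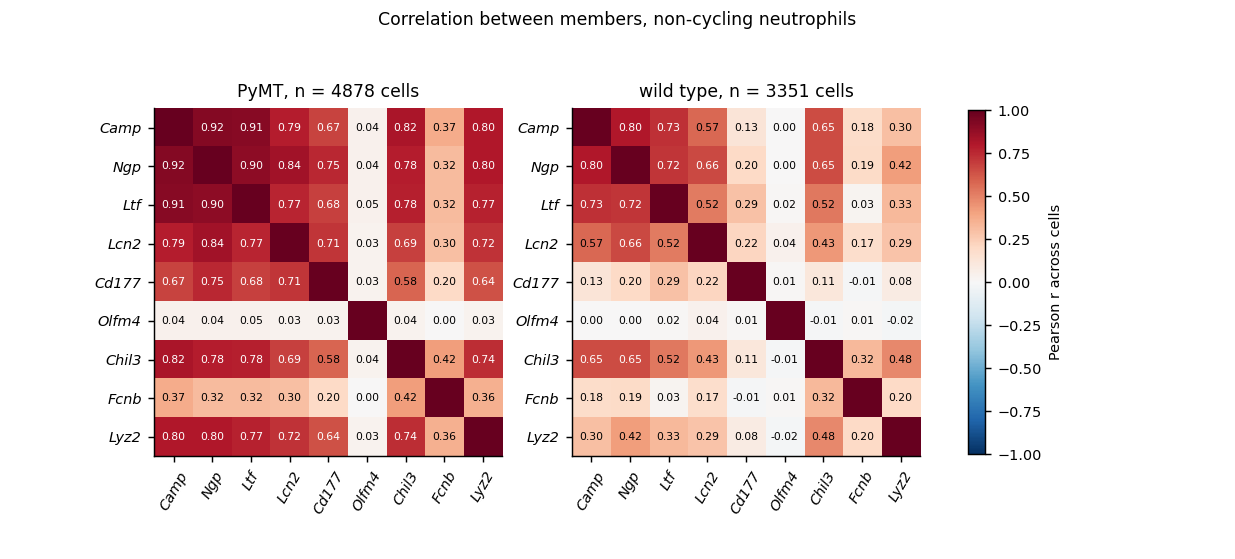
Pearson's r across non-cycling neutrophils for each pair of the 9 genes, PyMT (4878 cells) left and wild type (3351 cells) right; colour runs on a fixed scale, from -1 in blue to 1 in red. The block of Camp, Ngp, Ltf and Lcn2 is darkest in both, and Olfm4 is near 0 throughout.

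Ribosomal protein genes, mitochondrially encoded genes, antigen receptor genes and unnamed gene models were left out of a ranking of other genes by similarity. Of the 3256 ranked genes, each with at least 500 UMIs in the neutrophils of each library, the 6 with the highest mean r with the 9 genes, taking the lower of the libraries, were Anxa1, Orm1, Cebpe, Arhgdib, Scp2 and Cpne3. Anxa1, which encodes the phospholipid-binding protein annexin A1, had a mean r of 0.57 in PyMT and 0.28 in wild type over those cells. Cebpe, which encodes C/EBP epsilon, had 0.51 in PyMT and 0.24 in wild type, and stood at 374 CPM in PyMT and 577 CPM in wild type neutrophils. At the other end were Retnlg, Fth1, Ftl1 and Msrb1. Retnlg, a resistin-like secreted protein of mature neutrophils, had -0.41 in PyMT and -0.34 in wild type, and Fth1, the ferritin heavy chain, -0.59 in PyMT and -0.33 in wild type.

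In monocytes several members were near their level in B cell-class cells, slightly above it or below it. Camp stood at 1075 CPM in PyMT and 1624 CPM in wild type monocytes, beside 1169 CPM in PyMT and 1519 CPM in wild type B cell-class cells. Ngp was at 1344 CPM in PyMT and 1182 CPM in wild type monocytes, beside 1468 CPM in PyMT and 1142 CPM in wild type B cell-class cells. Lcn2 was at 718 CPM in PyMT and 478 CPM in wild type monocytes, beside 707 CPM in PyMT and 479 CPM in wild type B cell-class cells. Ltf was at 305 CPM in PyMT and 295 CPM in wild type monocytes, beside 347 CPM in PyMT and 293 CPM in wild type B cell-class cells. Olfm4 gave 14 UMIs in PyMT and 3 in wild type monocytes. These monocyte values were read as background. Cd177 stood above it, at 89.3 CPM in PyMT and 78.5 CPM in wild type monocytes, beside 34.6 CPM in PyMT and 19.0 CPM in wild type B cell-class cells, and after thinning 8.33% of PyMT and 6.16% of wild type monocytes had a Cd177 UMI. By the count, 3 of the 8 genes with enough UMIs were at least 1.5-fold higher in PyMT monocytes (Chil3, Lcn2 and Fcnb) and 1 was lower (Camp), where 7.84% of 9031 genes were higher and 9.06% lower. Of those 4, Camp and Lcn2 were near the background of their library. The count of lower genes was 0 under 7 of the alternative settings.

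Lyz2, the most abundant transcript of monocytes in both libraries, stood at 31181 CPM in PyMT and 30476 CPM in wild type (log2 0.03), against 1001 CPM in PyMT and 955 CPM in wild type B cell-class cells. Chil3 differed more than any other member. It stood at 2356 CPM in PyMT monocytes (2329 to 2383) and 363 CPM in wild type monocytes (344 to 383), a log2 difference of 2.70 (2.62 to 2.78), with 169 CPM in PyMT and 135 CPM in wild type B cell-class cells. With only monocytes under 0.1% Wfdc17 it was 1.67. After thinning to 1000 UMIs, 60.3% of PyMT and 24.8% of wild type monocytes had a Chil3 UMI, against 15.1% of PyMT and 16.8% of wild type B cell-class cells.

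The Chil3 difference was also looked for within kinds of monocyte, a split chosen after the values were seen. Classical monocytes, defined by Ly6c2 and Ccr2, had 2522 CPM in PyMT (921 cells) and 308 CPM in wild type (238 cells). Nonclassical ones, defined by Ace, Treml4 and Cd300e, had 952 CPM in PyMT (32 cells) and 147 CPM in wild type (49 cells). Where S100a8 and S100a9 were under 1% of UMIs, 62 PyMT monocytes held 2082 CPM and 533 wild type monocytes 376 CPM of Chil3, while B cell-class cells under the same limit held 108 CPM in PyMT and 127 CPM in wild type. Chil3 was thus higher in PyMT in these 3 subsets, while nonclassical monocytes under 1% S100a8 and S100a9 held 1 cell in PyMT and could not be compared. The 6 monocyte markers summed to 4258 CPM in PyMT and 3384 CPM in wild type monocytes and the 4 dendritic cell markers to 1777 CPM in PyMT and 10508 CPM in wild type, and their part in the Chil3 difference was not tested. The dendritic cell sums were again mostly Cd74 and H2-Ab1, while Flt3 was at 8.76 CPM in PyMT and 7.49 CPM in wild type monocytes. Fcnb in monocytes was at 11.97 CPM in PyMT (149 UMIs) and 7.49 CPM in wild type (29 UMIs), against 2.47 CPM in PyMT and 3.45 CPM in wild type B cell-class cells.

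Other genes of the granule programme were followed in neutrophils as lists. Of 12 other specific granule genes, 11 had enough UMIs, of which 2 were higher in PyMT and 2 were lower (median 0.11, beside -0.47 for all genes). As above, 7.11% of all genes were higher and 42.6% lower in this comparison, and the list counts here are read against those shares. The higher ones were Lrg1, a leucine-rich secreted glycoprotein, at 2067 CPM in PyMT and 642 CPM in wild type (log2 1.69), and Hp, haptoglobin, at 2924 CPM in PyMT and 1485 CPM in wild type (0.98). The lower ones were Orm1, an acute phase glycoprotein, at 140.1 CPM in PyMT and 227 CPM in wild type (-0.70), and Cybb, the catalytic subunit of the NADPH oxidase, at 659.7 CPM in PyMT and 1049 CPM in wild type (-0.67).

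Of 8 primary granule genes, 2 were lower in PyMT neutrophils and 1 was higher (median -0.19), a share of lower genes below the 42.6% of all genes. Srgn, the proteoglycan serglycin, was at 388 CPM in PyMT and 79.5 CPM in wild type (2.29), Elane, neutrophil elastase, at 25.1 CPM in PyMT and 70.9 CPM in wild type (-1.50), and Ctsg, cathepsin G, at 2.30 CPM in PyMT and 3.59 CPM in wild type (-0.64). Mpo, myeloperoxidase, at 11.01 CPM in PyMT and 16.1 CPM in wild type (-0.54), did not pass the limit. Within stages the direction differed from this pooled count. Of the tested genes of this list, 2 of 8 were higher in cycling (median 0.40), 4 of 5 in Cxcr2 0 (1.25) and 3 of 7 in Cxcr2-rich cells (0.58). In each of these classes 0 were lower. Of all genes, 3.8% in cycling, 4.81% in Cxcr2 0 and 9.62% in Cxcr2-rich cells were higher, and 29.1%, 24.9% and 30.1% were lower.

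Among 11 genes of late maturation 6 were higher and 0 were lower (median 1.02), where 7.11% of all genes were higher. They included the cytokine Il1b at 466 CPM in PyMT and 27.7 CPM in wild type (4.07), the lectin receptor Clec4d at 81.1 CPM in PyMT and 15.6 CPM in wild type (2.38), Csf3r at 259.8 CPM in PyMT and 97.0 CPM in wild type (1.42) and the chemokine Ccl6 at 344 CPM in PyMT and 132 CPM in wild type (1.39). Among 8 transcription factors of granulopoiesis 6 were lower and 1 was higher (median -0.91), where 42.6% of all genes were lower and 7.11% higher. Myb stood at 7.59 CPM in PyMT and 16.8 CPM in wild type (-1.15), Cebpa at 7.30 CPM in PyMT and 15.3 CPM in wild type (-1.06), Gfi1 at 4.88 CPM in PyMT and 9.74 CPM in wild type and Irf8 at 11.2 CPM in PyMT and 21.9 CPM in wild type (-0.97). The higher one, named for completeness after its values were seen, was Cebpb, which encodes C/EBP beta of emergency granulopoiesis, at 849 CPM in PyMT and 449.7 CPM in wild type (0.92). Within stages, 3 of the 8 factors were lower and 0 higher in cycling cells (median -0.28, beside -0.32 for all genes). At Cxcr2 0 the counts were the same (-0.48, beside -0.24). In Cxcr2-rich cells 6 were lower and 2 higher (-0.76, beside -0.29). Of all genes, 29.1% in cycling, 24.9% in Cxcr2 0 and 30.1% in Cxcr2-rich cells were lower, and 3.8%, 4.81% and 9.62% were higher. These 4 lists were chosen with results of these data known.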

How the data were processed

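The submitters deposited 1 matrix of raw UMI counts per library, made with Cell Ranger 2.1.0 against mm10, per the submitters' processing notes. The deposited counts were whole numbers and listed called cells only, with at least 2502 UMIs in PyMT and 2752 in wild type. The sources used here do not give how cells were called or how reads shared between gene copies were counted. From these counts, UMIs were summed per class and library and given as CPM with exact 95% Poisson intervals, and sums were compared by the ratio of CPM with an exact conditional interval. A gene was called higher or lower at 1.5-fold or more with at least 50 UMIs in both sums together. No differential test was run, since each group is 1 library of pooled mice and cells are not replicates. Shares of cells were also taken after thinning each cell to 1000 UMIs, and alternatives used 2500 UMIs with classes assigned again. The 9 genes, the classes and the gene lists were chosen with earlier results of these data known. Besides the 9 genes, the text names up to 4 genes per list with the largest difference in neutrophils, and the 6 most and 4 least similar genes across cells. Alternatives were other scalings, class limits, minimum counts, thinning, equal weight per cell and leaving out likely doublets. Positions come from GENCODE and promoters from RefSeq. Cebpd is not analysed here. The calculations were checked on simulated data and run in Python 3.11.15 with numpy 2.4.6, scipy 1.17.1, pandas 2.3.3 and matplotlib 3.10.9.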

Additional observations from a re-analysis of the deposited data

Results flagged for a closer look

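Differences below are of log2 values, each between effects of opposite sign, and with 1 library per group the difference was not tested. Between cycling and non-cycling neutrophils, 5 genes went opposite ways in the libraries. Camp was at 0.48 in PyMT and -0.07 in wild type, a gap of 0.55. Ltf was at 0.04 in PyMT and -0.50 in wild type, a gap of 0.54. Ngp was at 0.39 in PyMT and -0.10 in wild type (a gap of 0.49), Lcn2 at 0.12 in PyMT and -0.40 in wild type (0.51) and Cd177 at 0.29 in PyMT and -0.11 in wild type (0.39). These signs are by CPM. By the trimmed mean the PyMT values of Ltf (-0.39), Ngp (-0.04), Lcn2 (-0.32) and Cd177 (-0.15) had the sign of wild type, likewise by the median of ratios, and only Camp kept opposite signs.

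The PyMT over wild type value had opposite signs in cycling neutrophils and in neutrophils with 2 or more Cxcr2 UMIs for 5 genes. It was 0.09 in cycling and -0.53 in Cxcr2-rich cells for Ltf, a gap of 0.62, and 0.17 in cycling and -0.39 in Cxcr2-rich cells for Ngp, a gap of 0.56. For Lcn2 the gap was 0.54 (0.37 in cycling and -0.17 in Cxcr2-rich cells), for Cd177 0.45 (0.19 in cycling and -0.26 in Cxcr2-rich cells) and for Chil3 0.43 (0.09 in cycling and -0.34 in Cxcr2-rich cells). These signs are also by CPM. In Cxcr2-rich cells Lcn2 (0.21), Cd177 (0.13) and Chil3 (0.05) turned positive by the trimmed mean and likewise by the median of ratios. Under 0.1% Wfdc17 all 5 did, with Ltf at 0.11, Ngp at 0.18, Lcn2 at 0.25, Cd177 at 0.06 and Chil3 at 0.41.

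Between neutrophils and monocytes the sign differed for 6 genes. Chil3 stood at -0.37 in neutrophils and 2.70 in monocytes, a gap of -3.06, and Fcnb at -0.79 in neutrophils and 0.68 in monocytes, a gap of -1.47. The gaps of Lcn2 (-0.61), Lyz2 (-0.47), Ngp (-0.41) and Cd177 (-0.31) were smaller, and Ngp and Lcn2 were near the free RNA level in monocytes. By the trimmed mean Ngp (0.23), Lcn2 (0.43), Cd177 (0.33), Chil3 (0.09) and Lyz2 (0.02) were positive in neutrophils too.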

How the results depend on the processing

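No paired analysis was possible because each group is 1 library. Of 274 counts and averages recomputed under alternatives, 218 stayed within 1.5 times and 56 moved, all counts of called genes. The values of single genes were less stable: of 1177, 578 stayed the same within counting error, 598 moved and 1 called value reversed, and 88 values in 38 comparisons of a gene took the other sign, of which only the Olfm4 value given last had been past 1.5-fold. The 578 include the settings that change only the UMI minimum, which cannot move a value. Genes lower in PyMT neutrophils numbered 1 by the median of ratios, and 6 with equal weight per cell, thinned to 1000 UMIs or thinned to 2500. In cycling neutrophils 1 gene was higher by the trimmed mean or the median of ratios, and 1 was lower under those 2. The lower count was also 1 without S100a8, S100a9 and the 9 genes in the total, under either thinning, with S100 at 20% or at 200 UMIs. Leaving out neutrophils with 2 or more Csf1r and Ccr2 UMIs likewise gave 1 lower. It was 0 lower under 0.1% Wfdc17 (chosen after seeing the data). At Cxcr2 0, 1 was lower by both scalings, equal weight, thinning to 1000 and 200 UMIs. In Cxcr2-rich cells 4 were lower with the reduced total or without the deepest cells, 7 with equal weight or thinned to 2500, 6 thinned to 1000, and 1 at 200 UMIs or under 0.1% Wfdc17. In monocytes 0 were lower under both scalings, the reduced total, equal weight, both thinnings and without the deepest cells. From Cxcr2-rich against Cxcr2 0 PyMT cells the lower count was 6 with the reduced total or thinned to 1000, 7 with equal weight, 8 thinned to 2500 and 0 under 0.1% Wfdc17; in wild type it was 2 with equal weight or either thinning and 1 without the deepest cells. Cycling against non-cycling PyMT cells gave 4 higher with equal weight or thinned to 1000 and 6 thinned to 2500, and 0 lower under both thinnings, S100 at 20% and 200 UMIs; wild type gave 1 higher by both scalings, and 4 lower by the trimmed mean, 6 by the median of ratios, 3 with the reduced total and 0 thinned to 1000. Olfm4 in cycling against non-cycling PyMT cells turned from lower to 2.27 when thinned to 2500 UMIs. The causes were not tested. Camp per Ngp uses no total. Single libraries, free RNA in droplets and the depth gap between classes limit all values, and Olfm4 and monocyte Fcnb rest on few UMIs.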

Other observations

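Chil3 was not alone among granule genes in the PyMT monocyte class. Of 8 primary granule genes, 7 had at least 50 UMIs in both sums together and 6 of those were at least 1.5-fold higher in PyMT monocytes, with a median of 1.799 beside 0.01 for all genes, where 7.84% of all genes were higher. Prtn3, proteinase 3, stood at 180.6 CPM in PyMT and 21.7 CPM in wild type (log2 3.06), Elane at 27.6 CPM in PyMT and 10.1 CPM in wild type (1.46) and Ctsc, cathepsin C, which activates these proteases, at 653.6 CPM in PyMT and 346 CPM in wild type (0.92). Mpo rested on 150 UMIs in PyMT and 9 in wild type. Of 11 other specific granule genes tested, 5 were higher and 0 lower, where 7.84% of all genes were higher and 9.06% lower, among them Lrg1 at 260.3 CPM in PyMT and 30.5 CPM in wild type (3.09) and Hp at 1158 CPM in PyMT and 373 CPM in wild type (1.63). The 6 neutrophil markers summed to 16368 CPM in PyMT and 9583 CPM in wild type monocytes, and to 16842 CPM in PyMT and 9609 CPM in wild type B cell-class cells, and the part of free RNA in these differences was not tested. Elane was about as high in the PyMT monocyte class as in PyMT neutrophils. The rule of the monocyte class does not leave out progenitors, and which of its cells carry the primary granule transcripts was not tested.

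Summed levels of the remaining marker lists in neutrophils were 22.8 CPM in PyMT and 63.6 CPM in wild type for nonclassical monocytes, 225 CPM in PyMT and 360 CPM in wild type for T cells (mostly Cd3d), 15.0 CPM in PyMT and 25.4 CPM in wild type for NK cells, 79.3 CPM in PyMT and 9.48 CPM in wild type for erythroid cells, 4.72 CPM in PyMT and 4.64 CPM in wild type for macrophages and 9.74 CPM in PyMT and 5.89 CPM in wild type for platelets. Of their 24 genes, 1 erythroid gene was at 0 in wild type and none in PyMT.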
